A study of Mus musculus with 5 samples.

Results

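The cassette exons of genes with a Zfp symbol were described in the left ventricle of control and streptozotocin-injected mice. A cassette exon is one that a transcript either holds or skips. All exons present in each of 6 deposited comparison tables were taken whose gene symbol begins with Zfp, from the tables' own gene label or, where that was blank, from a mouse annotation matched on chromosome, strand, exon length and the lengths of the flanking introns. This gave 100 of 6331 exons, in 77 genes. The tables themselves named 59 of them and the annotation 41, and 60 genes had 1 exon, 11 had 2 and 6 had 3. In 5 cases 2 of these exons overlap in the genome and so share reads.

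The mice were of the strain C57BL/6. From an age of 8 weeks they were injected into the peritoneum on 5 days in a row, either with citrate buffer (Control, 2 samples) or with streptozotocin in that buffer at 70 mg/kg a day (STZ, 3 samples), and ventricles were taken at 12 weeks. Streptozotocin kills pancreatic beta cells, the source of insulin, and so makes mice diabetic, and no other group was compared. RNA was sequenced on an Illumina instrument, and the quantity used here is Psi, the fraction of transcripts that include the exon, as the authors estimated it. Library names in the tables are codes unlike any title in the labels. In each comparison 1 of 2 codes is set against 1 of 3 others, so the 2 were read as Control A and B and the 3 as STZ A, B and C on the sizes of the groups only. By their form the codes fall into 2 series along the same line, so series and treatment cannot be told apart.

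Zfp symbols are given to zinc finger proteins, most of which hold a row of C2H2 fingers, short loops folded around a zinc ion that read DNA base by base. Many also carry a KRAB box at the front of the protein, which recruits the corepressor Trim28 and through it heterochromatin, and such KRAB zinc finger genes sit in large clusters and silence transposable elements. The usual gene has a few short exons for the untranslated leader, the start codon and the KRAB box. A long last exon encodes all the fingers. A cassette exon can thus change the leader or the repressor domain without removing the finger exon. Where skipping shifts the frame, what is read from that last exon changes too. A smaller number of Zfp proteins bind RNA or serve in mitosis.

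Of the 100 exons, 88 matched a transcript of GENCODE M21 by length. Among these, 27 lay in the 5′ UTR (30.7%, against 11.7% of 5607 other matched exons) and 14 held the start codon (15.9%, against 5.80%). Leader and start codon exons together made up 46.6% of the Zfp exons and 17.5% of the others. Wholly coding exons came to 29 (33.0%, against 62.4%), exons with the stop codon to 3, and exons of transcripts without a reading frame to 15 (17.0%, against 17.6%). Of the 29 coding exons, 12 had a length that is a multiple of 3 (41.4%, against 56.0% of other coding exons), so that skipping of the other 17 shifts the frame. These shares were set by the annotation and by which exons the tables hold, and were not tested.

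**Figure D1:**
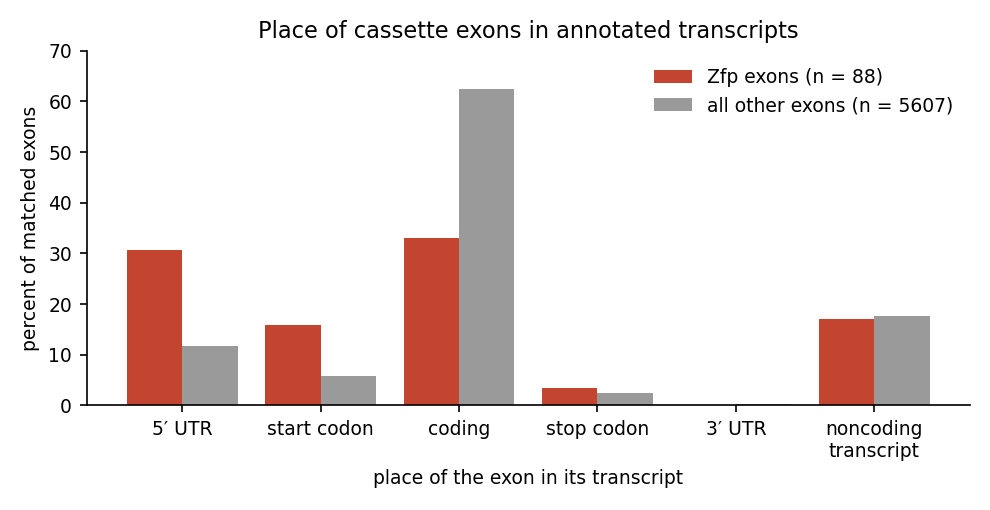
Percent of exons matched by length to an annotated transcript (vertical axis) that fall in each place of it, for Zfp exons (red, n = 88) and all other exons of the tables (grey, n = 5607). Zfp exons stand above the others in the 5′ UTR (30.7% against 11.7%) and at the start codon (15.9% against 5.80%), and below them in coding sequence (33.0% against 62.4%).

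Most exons lay before the fingers. In 62 cases the matched transcript was a complete coding one, and its product held a C2H2 finger in 59, with 2 to 25 fingers and a median of 9. All fingers lay after the exon in 50 of these, and in 6 a finger lay inside the exon itself. A KRAB A box was found in the product of 22 exons from 20 genes. Chromosome 7 held 21 of the 100 exons (21%, against 7.87% of all exons), chromosome 13 held 12 (12%, against 3.29%) and chromosome 17 held 11 (11%, against 5.04%).

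The box itself lay in 4 of the cassette exons, those of Zfp1, Zfp655, Zfp961 and Zfp97, each 127 nt long. Among exons matched to a coding transcript, only 6 in all the tables encode it by the pattern used. The 4 Zfp exons are shown because skipping any of them takes the KRAB A box out of the message and shifts the frame. In the files' build, mm9, they lie at chr8:114189978-114190104 (Zfp1), chr5:145996606-145996732 (Zfp655), chr8:74489693-74489819 (Zfp961) and chr17:17279700-17279826 (Zfp97), all on the plus strand. The sequences are those of the length-matched GENCODE M21 transcripts, 5′ to 3′, with the 23 codons that match the KRAB A pattern in capitals.
Zfp1: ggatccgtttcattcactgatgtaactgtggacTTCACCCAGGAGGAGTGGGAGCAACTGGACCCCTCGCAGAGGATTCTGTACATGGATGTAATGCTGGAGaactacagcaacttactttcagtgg
Zfp655: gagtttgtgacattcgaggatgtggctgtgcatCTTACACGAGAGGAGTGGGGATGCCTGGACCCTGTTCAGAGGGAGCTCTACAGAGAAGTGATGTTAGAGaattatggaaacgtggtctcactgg
Zfp961: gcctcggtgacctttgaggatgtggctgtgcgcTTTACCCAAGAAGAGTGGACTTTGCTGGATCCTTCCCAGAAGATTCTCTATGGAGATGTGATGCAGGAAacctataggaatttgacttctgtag
Zfp97: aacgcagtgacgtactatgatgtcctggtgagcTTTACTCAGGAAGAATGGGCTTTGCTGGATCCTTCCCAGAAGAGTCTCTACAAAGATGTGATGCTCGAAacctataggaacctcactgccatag
The 4 exons were identical at 59.1% to 76.4% of their 127 positions, highest between Zfp961 and Zfp97 with 97 identical bases.

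A second kind of exon holds the start codon, and 2 of these, in Zfp266 and Zfp295, are among the exons whose Psi changed below. Their coding part is shown from the start codon, in capitals, to the end of the exon, which is 25 nt in Zfp266 and 72 nt in Zfp295.
Zfp266: ATGgcagccattgatttgtcccatg
Zfp295: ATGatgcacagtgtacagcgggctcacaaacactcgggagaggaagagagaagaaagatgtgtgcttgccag
The Zfp266 exon lies at chr9:20311172-20311326 on the minus strand of mm9 and the Zfp295 exon at chr16:98177923-98178065, also on the minus strand. In both genes every finger, 9 in Zfp266 and 6 in Zfp295, is encoded after this exon.

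Zfp exons were thinly read. The reads on all 6331 exons numbered 12692236 to 20963751 per library, in 4 classes: those that fit the isoform with the exon alone, the isoform without it alone, both or neither. The first 2 classes tell the isoforms apart and are called informative here. A tested Zfp exon had a median of 73 and 93 such reads in Control A and B and of 56, 53 and 47 in STZ A, B and C, against 154, 192, 118, 102 and 94 for all tested exons. A test needed at least 10 informative reads in every library, which 61 of the 100 Zfp exons from 47 genes had (61%, against 75.3% of all exons). Just outside this minimum were 5 exons with 8 or 9 reads in their lowest library, with differences in Psi of -0.188 (Zfp932) to 0.0133 (Zfp426), and just inside it 6 with 10 to 12, from -0.68 (Zfp266, 155 nt) to 0.0183 (Zfp523). The marker lists for cell types were covered in part only, and levels are given as event RPM, reads on an exon per 1000000 reads on all exons. Of 8 cardiomyocyte genes 4 had exons, with sums of 100807 and 101787 in Control and 69034, 62030 and 56471 in STZ. Pln alone made up 59253 and 58967 in Control and 21464, 16453 and 19108 in STZ, while Ttn, Tnnt2 and Ldb3 together came to 41554 and 42820 in Control and 47569, 45577 and 37363 in STZ, where the groups overlap. The other lists rested on 1 or 2 genes each. Pecam1 (endothelial) had 1548 and 1396 in Control and 3107, 4064 and 5332 in STZ, and Myh11 (smooth muscle) 56.4 and 49.6 against 181, 111 and 155. Ptprc and Cd74 (leukocyte) summed to 141 and 83.0 in Control and 33.2, 16.0 and 38.1 in STZ, and Fn1 (fibroblast) had 94.9 and 108 against 73.7, 54.6 and 82.1. The part of cell composition in the results below was not tested.

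The reads on Zfp exons were a smaller part of the library in STZ. They came to 11087 and 11506 event RPM in Control A and B, and 9361, 7083 and 6968 in STZ A, B and C. The groups do not overlap. The exon with the most informative reads in both Control libraries was the 198-nt exon of Zfp106, an RNA-binding zinc finger protein needed by motor neurons and muscle, with 2028 and 2675 event RPM in Control against 1335, 540 and 452 in STZ. Without it the other 99 exons still summed to 9060 and 8830 in Control and to 8026, 6543 and 6515 in STZ. Single exons moved this sum both ways. Zfp697 rose from 364 and 393 in Control to 1974, 949 and 976 in STZ, nearly all of it reads that fit neither isoform. Zfp703 rose from 105 and 97.2 to 698, 554 and 530. Zfp410 fell from 1218 and 1141 to 539, 492 and 482, and Zfp706 from 771 and 732 to 153, 186 and 202. By exon, 66 of 100 were lower in every STZ library than in both Control libraries and 17 higher, where 46.7% of all exons were lower in this way and 26.2% higher. For reads that fit an isoform the counts were 49 lower and 17 higher, against 38.9% and 25.8% of all exons. These are shares of the reads on the tables' exons and not gene expression levels, and fewer cells of a type cannot be told apart from less RNA per cell.

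**Figure D2:**
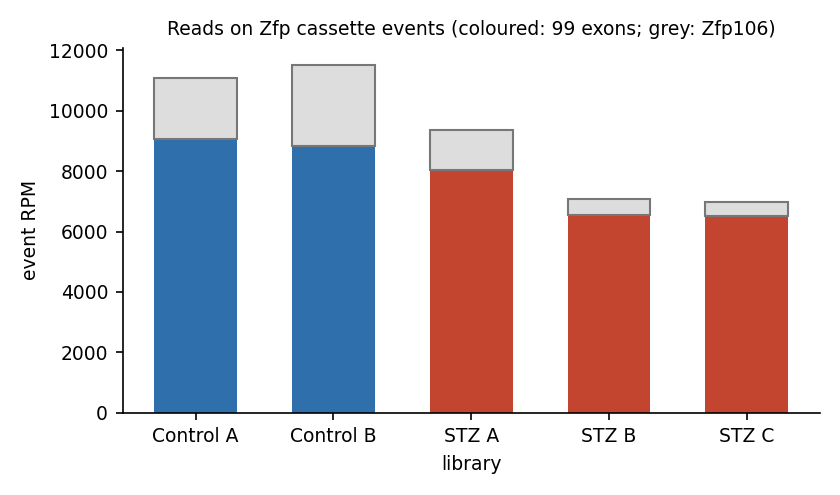
Reads on Zfp exons as event RPM, reads per 1000000 reads on all exons of the tables (vertical axis), in each library, with the 99 exons other than that of Zfp106 in blue (Control) or red (STZ) and the Zfp106 exon stacked on top in grey. Both Control libraries (11087 and 11506 in all) stand above the 3 STZ libraries (6968 to 9361).

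Single genes went both ways. Zfp948 had 38.4 and 33.5 event RPM in Control and 184, 115 and 111 in STZ. The 127-nt Zfp655 exon had 139 and 139 RPM of the reads that fit an isoform in Control and 61.0, 58.1 and 65.0 in STZ. The 2 exons of Zfp266 together had 54.5 and 51.1 event RPM in Control and 22.3, 12.0 and 15.7 in STZ. In each of these 3 genes the groups were apart, upwards in Zfp948 and downwards in the others.

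Inclusion was compared between STZ and Control on the logit of Psi with limma over all 4769 testable exons of the tables, and an exon was called changed at a Benjamini-Hochberg adjusted p under 0.05. Of the 61 tested Zfp exons 6 were called (9.84%), of which 2 rose in STZ and 4 fell. Over all tested exons 15% were called, 4.84% higher and 10.1% lower. The number of called Zfp exons was 1 without Control A (1.64%, against 5.88% of all tested exons in that fit) or STZ B (1.56%, against 6.25%). It was 2 without STZ A (3.23%, against 9.72%) or STZ C (3.28%, against 7.14%) and 3 without Control B (4.92%, against 6.48%). At an unadjusted p under 0.05 there were 14 Zfp exons (23.0%, against 32%). The groups did not overlap in 21 (34.4%, against 42.9%), 6 higher and 15 lower (against 14.1% and 28.8% of all tested exons). The mean difference was at least 0.10 in 14 (23.0%, against 25.7%) and at least 0.20 in 4 (against 11.3%). The median difference was -0.0117 in Zfp exons and -0.01 in all, and the median absolute difference 0.035 in both. The median logit of Psi over all tested exons was lower in the STZ libraries, with a mean difference from Control of -0.45. With the logit of Psi centred on each library's median, 6 Zfp exons were called (9.84%, against 19.5% of all tested exons in that fit), 4 higher and 2 lower, the lower ones being Zfp266 and Zfp948. A quasi-binomial model of the informative reads themselves called 5 Zfp exons (8.20%, against 23%), of which 3 were also called on Psi: those of Zfp948, Zfp266 and Zfp295.

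Many Zfp exons were included in part of the transcripts. Control Psi lay between 0.1 and 0.9 in 33 of 61 (54.1%, against 37.5% of all tested exons), above 0.9 in 19 and below 0.1 in 9. Libraries of the same group also differed: the mean absolute difference of Psi within Control was 0.0543 (0.0363 over all tested exons) and within STZ 0.0595 (0.0484), while between the groups it was 0.0870 (0.0836). In 23 of the 61 (37.7%, against 33.6% of all tested exons), one of the isoforms had under 5 reads of its own in all libraries together. In 7 there was no read of the skipping isoform at all, as in 656 of all 4769 tested exons.

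**Figure D3:**
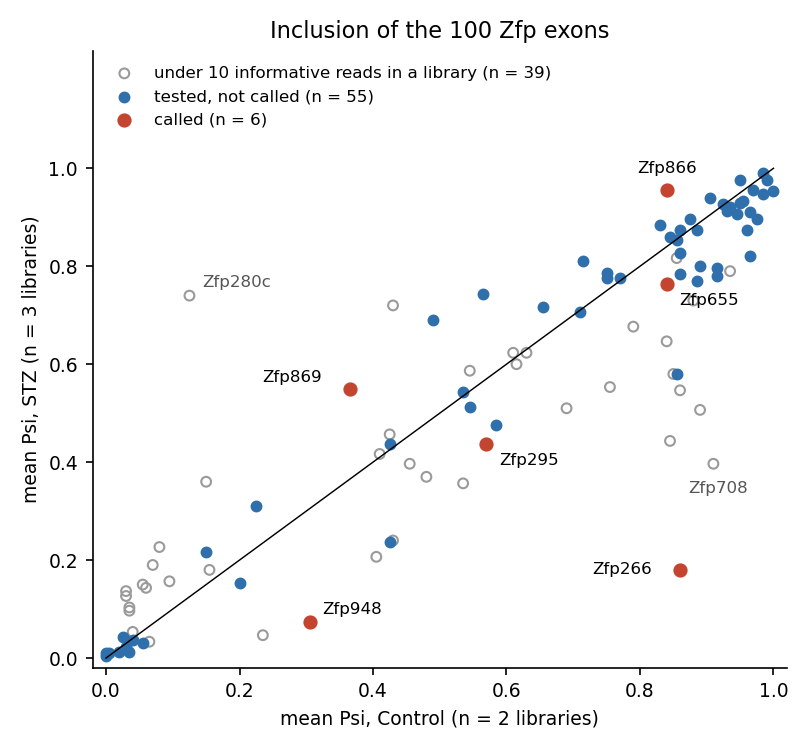
Mean Psi in Control (horizontal axis, n = 2 libraries) and STZ (vertical axis, n = 3 libraries) of the 100 Zfp exons, with exons called by limma in red (n = 6), tested exons not called in blue (n = 55) and exons with under 10 informative reads in a library as open circles (n = 39). Zfp948 and Zfp266 lie below the diagonal of equal Psi and Zfp280c, which was not tested, lies far above it.

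Zfp948, a zinc finger gene of a chromosome 17 cluster, had the lowest adjusted p of the Zfp exons. Its 161-nt exon, at chr17:21714261-21714421 on the plus strand of mm9, matched no transcript by length, so its place is not given. Psi was 0.29 and 0.32 in Control A and B, and 0.07, 0.08 and 0.07 in STZ A, B and C. Every STZ library lay far below both Control libraries, and libraries of a group differed by at most 0.03. Mean Psi went from 0.305 ± 0.0212 (SD, n = 2) to 0.0733 ± 0.00577 (SD, n = 3), and on the logit scale Psi fell by 1.71 (SE 0.0991, limma adjusted p = 0.00679). The reads showed the same direction. Reads of the including isoform were 11 and 7 in Control and 13, 8 and 6 in STZ, while those of the skipping isoform were 10 and 8 in Control and 76, 35 and 36 in STZ. The share of including reads thus went from 0.495 to 0.158, with a read model adjusted p of 0.00448. The call was kept whichever library was left out (adjusted p = 0.0276 to 0.0343 in limma), the only Zfp exon of which this was so.

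Zfp266, a KRAB zinc finger gene reported to limit the reprogramming of fibroblasts to cardiomyocytes, had the largest difference in Psi of the tested Zfp exons. Its 155-nt start codon exon had a Psi of 0.81 and 0.91 in Control A and B, and of 0.09, 0.24 and 0.21 in STZ A, B and C. The groups were wide apart. Mean Psi went from 0.860 ± 0.0707 (SD, n = 2) to 0.180 ± 0.0794 (SD, n = 3), and on the logit scale Psi fell by 3.48 (SE 0.52, limma adjusted p = 0.0327). The reads behind the STZ values were few. Including reads were 84 and 132 in Control and 9, 12 and 11 in STZ, and skipping reads were 0 and 1 in Control and 2, 6 and 3 in STZ. Their share went from 0.996 to 0.757, a smaller step than that in Psi, with a read model adjusted p of 8.7e-05. The limma call was lost whichever of the 5 libraries was left out (adjusted p = 0.0581 to 0.138), though the difference kept its direction. A further exon of the gene, of 100 nt in the 5′ UTR, had 8 informative reads in its lowest library and was not tested, with a Psi of 0.89 and 0.82 in Control and 0.90, 0.73 and 0.82 in STZ, where the groups overlap.

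Zfp295, which the annotation calls Zbtb21, encodes a BTB zinc finger protein. Psi of its 143-nt start codon exon was 0.58 and 0.56 in Control and 0.45, 0.45 and 0.41 in STZ, with all STZ libraries below Control. Mean Psi went from 0.570 ± 0.0141 (SD, n = 2) to 0.437 ± 0.0231 (SD, n = 3), with a limma adjusted p of 0.0421 and a read model adjusted p of 0.0352. Including reads were 107 in Control and 115 in STZ and skipping reads 28 and 69. The share of including reads was 0.803 and 0.784 in Control and 0.625, 0.622 and 0.630 in STZ. The call was lost whichever library was left out (limma adjusted p = 0.0786 to 0.157) and with Psi centred per library (limma adjusted p = 0.860). On the logit scale its change was -0.54, beside the difference of -0.45 in the library medians. The latter compares medians over exons and is not the median change per exon. In Psi, the median change per exon was -0.01 over all tested exons, beside -0.133 for Zfp295.

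**Figure D4:**
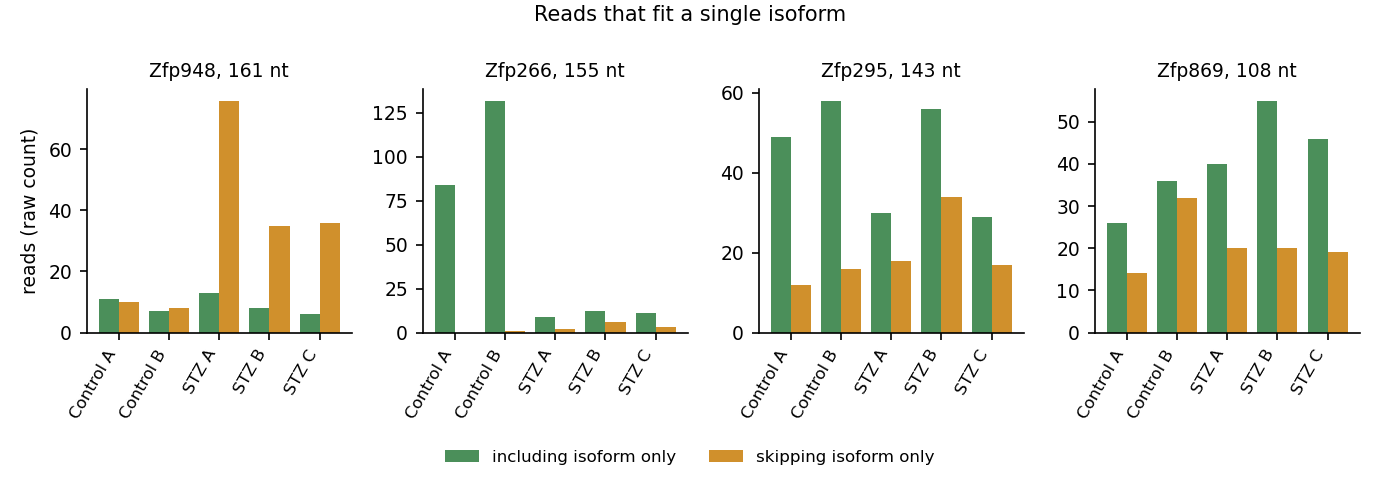
Raw counts of reads that fit only the including isoform (green) or only the skipping isoform (orange) in each library, for 4 called Zfp exons. In Zfp948 the skipping reads stand at 8 and 10 in Control and at 35 to 76 in STZ, in Zfp266 the including reads at 84 and 132 in Control and at 9 to 12 in STZ.

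Among the KRAB A exons printed above, 1 was called. Zfp655, a KRAB zinc finger protein known for binding the signalling protein Vav, had a Psi of 0.83 and 0.85 in Control and of 0.78, 0.76 and 0.75 in STZ, a mean difference of -0.0767 with a limma adjusted p of 0.0488. The groups do not overlap, but the difference is small and the read shares were close, at 0.959 in Control and 0.944 in STZ (read model adjusted p = 0.876). The call was lost whichever library was left out (limma adjusted p = 0.0762 to 0.175) and with Psi centred per library (0.934). The KRAB A exon of Zfp1 had a Psi of 0.71 and 0.83 in Control and 0.86, 0.81 and 0.66 in STZ, and that of Zfp97 was nearly always included, at 0.98 and 0.99 in Control and 0.99 in all STZ libraries. In both the groups overlap. Zfp961 was not tested, with as few as 2 informative reads in a library and a Psi of 0.85 and 0.91 in Control against 0.66, 0.62 and 0.91 in STZ.

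The 2 exons called higher both lie on chromosome 8. Zinc finger genes have near copies in the genome, and whether reads were divided among copies was not tested for either exon. The 61-nt exon of Zfp866, at chr8:72268091-72268151 on the minus strand of mm9, is a coding exon after the KRAB A box, and the annotation gives its transcripts to Zfp963 and Gm20422. Its Psi was 0.81 and 0.87 in Control and 0.96, 0.96 and 0.95 in STZ (limma adjusted p = 0.0270). The groups are apart, yet all libraries together held 1 skipping read, in Control B, beside 67 including reads in Control and 166 in STZ. With under 5 skipping reads the exon could not be called by the read model. The 108-nt exon of Zfp869, at chr8:72238201-72238308 on the same strand, matched no transcript. Its Psi was 0.36 and 0.37 in Control and 0.51, 0.57 and 0.57 in STZ, with a mean of 0.365 ± 0.00707 (SD, n = 2) against 0.550 ± 0.0346 (SD, n = 3) and a limma adjusted p of 0.0337. Including reads went from 62 to 141 and skipping reads from 46 to 59, so that the share of including reads was 0.65 and 0.529 in Control and 0.667, 0.733 and 0.708 in STZ, with a read model adjusted p of 0.186. The Zfp866 call was lost whichever library was left out (adjusted p = 0.0507 to 0.0934 in limma), and the Zfp869 call was kept only without STZ A.

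**Figure D5:**
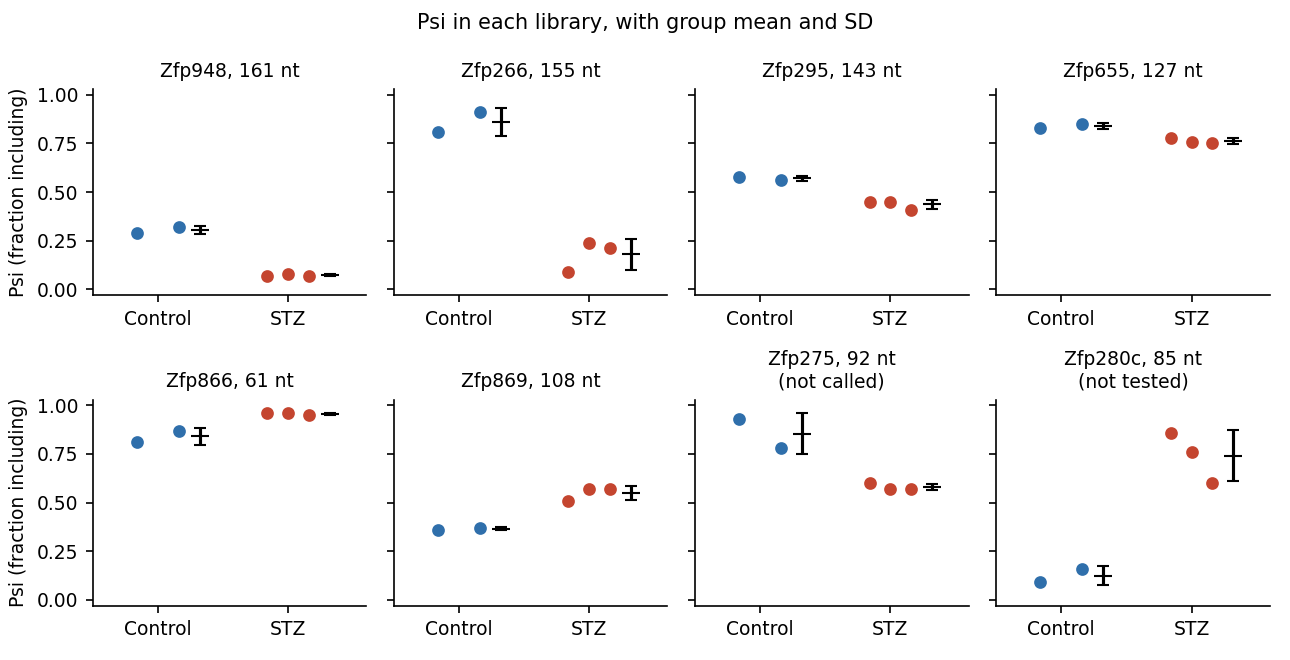
Psi (vertical axis, fraction of transcripts including the exon) in each Control (blue, n = 2) and STZ (red, n = 3) library, with the group mean and SD in black, for the 6 called Zfp exons, Zfp275 (tested, not called) and Zfp280c (not tested). The groups do not overlap in any of the 8 exons, and the STZ values of Zfp948 lie within 0.07 to 0.08.

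By place in the transcript the called exons were spread out. Of 23 tested leader and start codon exons 2 were called, both lower (8.70%, against 15% of all tested exons in either direction), with a median difference of -0.0317. None of these 23 was higher in every STZ library (against 14.1% of all tested exons), and 5 were lower in every one (21.7%, against 28.8%). Of 24 tested coding exons 2 were called (8.33%, against the same 15%), 1 in each direction, with a median difference of -0.005. Of the 14 other tested exons 2 were called (14.3%), also 1 in each direction, with a median of -0.005.

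Leader and start codon exons that were not called gave some of the wider differences. The 98-nt start codon exon of Zfp758 had a Psi of 0.48 and 0.37 in Control and 0.29, 0.23 and 0.19 in STZ (limma adjusted p = 0.109). Both tested leader exons of Zfp946 were lower in every STZ library: the 85-nt one had 0.97 and 0.96 in Control and 0.92, 0.72 and 0.82 in STZ (limma adjusted p = 0.126, read model 0.0123), and the 97-nt one 0.93 and 0.84 against 0.77, 0.81 and 0.73, without a skipping read in any library. The 121-nt leader exon of Zfp945 had a higher mean in STZ, with a Psi of 0.62 and 0.36 in Control and of 0.74, 0.77 and 0.56 in STZ, and its groups overlap (limma adjusted p = 0.360). Zfp260, a zinc finger protein that works with GATA4 in heart muscle cells, had its 195-nt leader exon at 0.89 and 0.88 in Control and 0.87, 0.86 and 0.89 in STZ, a difference of -0.0117. Zfp62 had 3 tested leader exons, at a mean Psi that differed by -0.0467, 0.0350 and 0.0850, all with overlapping groups.

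Of the tested coding exons not called, the 92-nt exon of Zfp275 differed most. Psi was 0.93 and 0.78 in Control and 0.60, 0.57 and 0.57 in STZ, and skipping reads were 3 of 64 informative reads in Control and 14 of 67 in STZ. The limma adjusted p was 0.107 and that of the read model 0.0695. Without Control B, the lower of both Control libraries, the limma adjusted p was 0.0225. The 64-nt exon of Zfp120, of the KRAB class, was higher in every STZ library, at 0.47 and 0.66 in Control and 0.77, 0.76 and 0.70 in STZ (limma adjusted p = 0.183).

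Other coding exons lay higher on the scale of inclusion. The 86-nt exon of Zfp26, whose product has 22 fingers, had a Psi of 0.96 and 0.96 in Control and 0.86, 0.84 and 0.92 in STZ, lower in every STZ library, with 2 skipping reads in all (limma adjusted p = 0.0771). The 163-nt exon of Zfp385b had 0.93 and 0.90 in Control and 0.85, 0.79 and 0.75 in STZ, and its including reads went from 245 in both Control libraries to 59 in the 3 STZ libraries (limma adjusted p = 0.0917). Zfp143, an activator of snRNA genes, had the opposite balance of reads. Its 84-nt and 81-nt exons, which share 81 bases, had 125 and 111 including reads in Control and 347 and 346 in STZ, while their mean Psi differed by only -0.0167 and -0.0150 and the groups overlap. For Zfp143 the amount of reads and the inclusion of the exon thus stood apart.

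Skipping was the rule in another set. The 378-nt exon of Zfp277, the 107-nt exon of Zfp1, the 134-nt exon of Zfp703, a corepressor of the NET family, and the 137-nt exon of Zfp523 had a Psi of at most 0.06 in every library. The 134-nt exon of Zfp703 had 6 including and 63 skipping reads in Control and 38 and 336 in STZ, so its reads were more numerous in STZ at the same low Psi of 0.02 or 0.03. Zfp771 (126 nt) had 0.03 and 0.04 in Control and 0.01, 0.02 and 0.01 in STZ, lower in every STZ library (limma adjusted p = 0.111).

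The 10 uncalled exons with the most informative reads belonged mostly to genes without a KRAB A box in the matched product. Zfp207, a spindle assembly factor that binds Bub3, had a 93-nt exon with 565 to 1046 informative reads per library. Its Psi was 0.65 and 0.66 in Control and 0.68, 0.77 and 0.70 in STZ, higher in every STZ library by little (difference 0.0617, limma adjusted p = 0.338, read model 0.0771). The 606-nt exon of Zfp644, with 475 to 823 informative reads, had 0.88 and 0.87 in Control and 0.79, 0.94 and 0.96 in STZ, where STZ A lay below and the others above Control. The 198-nt exon of Zfp106 was included in nearly all transcripts, at 1 and 1 in Control and 0.98, 0.96 and 0.92 in STZ, with 3 skipping reads beside 8072 including ones in Control and 12 beside 2742 in STZ (limma adjusted p = 0.152, read model 0.0215). Zfp512 lay at 0.96 and 0.99 in Control and 0.90, 0.94 and 0.85 in STZ (adjusted p = 0.163 in limma). Zfp346, which binds double-stranded RNA, Zfp277 (202 nt), Zfp511 and Zfp706 differed by 0.00167, 0.0267, -0.0133 and 0.00333 in mean Psi, and the 96-nt start codon exon of Zfp68 by -0.0317, with adjusted p from 0.104 to 1 in limma.

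The 39 Zfp exons without the reads for a test held some of the widest differences in Psi. The mean difference was at least 0.20 in 9 (23.1%, against 23.8% of the 1562 untested exons of all genes), lower in 6 and higher in 3, and the groups did not overlap in 17 (43.6%, against 35.3%), 10 lower and 7 higher (against 18% and 17.3%). Zfp280c, of the suppressor of hairy wing-like family, had an 85-nt exon in a transcript without reading frame with a Psi of 0.09 and 0.16 in Control and 0.86, 0.76 and 0.60 in STZ. Its informative reads were few but went one way: 1 and 1 including and 8 and 4 skipping reads in Control, and 17, 10 and 4 including and no skipping reads in STZ. Zfp708 had a 96-nt coding exon at 0.90 and 0.92 in Control and 0.56, 0.27 and 0.36 in STZ, with 77 including and no skipping reads in Control and 10 and 2 in STZ. Below a difference of 0.20, and so not one of the 9, Zfp932 had a 100-nt leader exon at 0.24 and 0.23 in Control and 0.06, 0.03 and 0.05 in STZ, with 63 including and 19 skipping reads in Control and 3 and 22 in STZ.

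The others of the 9 were Zfp874a (114 nt, difference -0.402), Zfp961 (123 nt, -0.383), Zfp78 (96 nt, -0.313), Zfp82 (90 nt, -0.270), Zfp94 (39 nt, -0.202), Zfp697 (161 nt, 0.210) and Zfp783 (129 nt, 0.290). In Zfp874a, Zfp961, Zfp78 and Zfp82 the groups were apart, in Zfp94, Zfp697 and Zfp783 they overlap. The 123-nt exon of Zfp961 lies wholly within its 127-nt KRAB A exon described above, whose groups overlap. It spans the bases of the box too, but its matched transcript has no reading frame, so it was not counted among the KRAB A exons. Each of these 7 exons had only 5 to 15 informative reads in all 3 STZ libraries together, and Zfp697 had none in Control. By the authors' own comparisons of single libraries, 3 of the 100 Zfp exons differed by at least 0.20 in the same direction in all 6 and reached a Bayes factor of 10 or more each time (3.22% of all exons did). These were the exons of Zfp266 and Zfp948, lower in STZ, and of Zfp280c, higher.

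Among proteins that work with KRAB zinc fingers, 16 exons of 11 genes were in the tables and 14 were tested. Of these 3 were called, all lower in STZ (21.4%, against 15% of all tested exons in either direction and 10.1% lower). A 102-nt exon of Chd3, the remodelling subunit of the NuRD complex, went from a mean Psi of 0.810 ± 0.0707 (SD, n = 2) to 0.380 ± 0.0173 (SD, n = 3; limma adjusted p = 0.0228). A 155-nt exon of Mphosph8, a reader of methylated histone H3 in the HUSH complex, went from 0.975 to 0.833 (adjusted p = 0.0335 in limma). A 123-nt exon of Atf7ip, the cofactor of the methyltransferase Setdb1, went from 0.04 to 0.01 (adjusted p = 0.0283 in limma). Its Psi was 0.01 in every STZ library, the value at which Psi was clipped for the test. The other 11 tested exons of these genes were not called by limma. The read model called 6 of the 14 (42.9%, against 23% of all tested exons): these 3 and the exons of Pphln1 (207 nt, higher in STZ, adjusted p = 0.00274 in the read model), Cbx5 (100 nt, lower, 0.0123) and Cbx1 (178 nt, lower, 0.0268).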

How the data were processed

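RNA of 2 Control and 3 STZ left ventricles was measured. Reads were handled with CASAVA 1.8.2 and TopHat (no version given) on mm9, per the submitters' processing notes. The authors compared single libraries with MISO, per the file headers, in 6 tables. Of MISO the version and event annotation were not given in the sources used here. Psi was deposited by the authors as a fraction, a posterior mean rounded to 2 decimals. The deposited Bayes factor is a ratio of evidence for a difference to that for none. Read classes were deposited by the authors as raw counts and the difference column as Psi minus Psi, both of the unit other. The 36 other columns of values per library were not used.

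Exons present in all 6 tables (6331 of 6616) were named by the tables' gene label or by a length match to GENCODE M21, an annotation of another build (GRCm38), so coordinates are those of the files and sequences those of the matched transcripts. In 5 of 47 Zfp exons with both names the annotation gave another symbol. A further 9 exons with a Zfp gene in the annotation but another symbol in the tables were not members. A KRAB A box was a stretch of 23 residues fitting a fixed pattern in the translated transcript, and a C2H2 finger was C, 2 to 4 residues, C, 12 residues, H, 3 to 5 residues, H.

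Psi was clipped to 0.01 and 0.99, put on the logit scale and tested with limma 3.58.1 in R 4.3.3 (two-sided, empirical Bayes moderation with a prior variance following the informative reads), with Benjamini-Hochberg adjusted p-values across the 4769 exons with at least 10 informative reads in every library. The read model is a quasi-binomial fit to informative reads with dispersions moderated in limma, in which an exon with under 5 reads of either isoform gets a p of 1. On simulated data for STZ against Control over 4769 exons, limma on Psi called 50 of 4569 unchanged exons. It called 32 of 100 changed by 1.5 on the logit scale and 53 of 100 changed by 3. The read model called 9, 86 and 96. Wrong calls were thus a larger share of the limma calls than the threshold of 0.05 aims at. Of these 50, 49 differed by under 0.10. Among the called Zfp exons only that of Zfp655 (-0.0767) differed by so little. Deposited Psi and read share can lie apart (0.09 and 0.818 for the 155-nt Zfp266 exon in STZ A). Whether the simulation matches this was not tested, so its counts do not rank the models. Nor do they tell which of the called Zfp exons are wrong calls. Differences are STZ minus Control. The labels do not state that each sample is a separate animal, so p-values measure the spread between these samples, which may be technical.

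Exons were named in the text by a rule: all called Zfp exons with groups apart (up to 15 each way), the 10 uncalled ones with the most reads in their lowest library, uncalled ones with a difference of at least 0.20, and Zfp106. Exons of Zfp758, Zfp946, Zfp62, Zfp120, Zfp932, Zfp1, Zfp97, Zfp26, Zfp385b, Zfp143, Zfp703, Zfp523 and Zfp771, the 378-nt exon of Zfp277, the further exon of Zfp266 and the 127-nt exon of Zfp961 were added after their values were seen. The members, gene lists and tests were chosen with earlier results of these data known.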

Additional observations from a re-analysis of the deposited data

How the results depend on the processing

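The number of called Zfp exons was 6. It was 4 to 8 with another clip of Psi, a minimum of 20 reads or none, the read model, the log2 ratio of reads, a constant prior variance, array weights, centring, 1 exon per gene or names from the tables alone. Where a share over all exons was counted, 8% (no minimum) to 9.84% of tested Zfp exons were called, against 10.1% (clip at 0.05) to 23.0% (read model) of all. That share was not counted with 1 exon per gene (12.8% of Zfp exons) or names from the tables alone (12.1%). The number was 7 with exons without spread within groups left out (12.1%, against 20.8%), an alternative chosen after seeing the data. The called exons were not the same ones throughout. In that fit Zfp869, Zfp295 and Zfp655 were lost (limma adjusted p = 0.144, 0.284 and 0.281). With a minimum of 20 reads Zfp948 and Zfp266 were not tested. Zfp655 was also lost at both other clips (limma adjusted p = 0.0683 and 0.0552) and with no minimum (0.0597). Zfp295 was lost at the lower clip (0.0632), with no minimum (0.0577) and in the log2 ratio (0.0828). The rule on the authors' 6 comparisons gave 3. Leaving out 1 library gave 1 to 3: 1 without Control A or STZ B, 2 without STZ A or STZ C and 3 without Control B. Over all tested exons the count fell from 713 (15%) to between 282 (5.88%) and 467 (9.72%) in these fits, so fewer samples lowered it there too. Both called rises were lost in the log2 ratio of reads. Zfp869 was also lost in the read model, which could not call Zfp866 for want of skipping reads. The median difference over Zfp exons stayed between -0.015 and -0.00333 in every setting run.

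Of the named exons, 3 that were not called changed sign, none with a call. Zfp346 (94 nt, 0.06 on the logit scale) gave -0.0309 in the log2 ratio of reads, and -0.156, -0.111 and -0.0150 without Control A, STZ A and STZ C, against 0.315 without STZ B and 0.516 when centred. Zfp68 (-0.13) gave 0.324 when centred and 0.0534 without Control A, and -0.311 without Control B. Zfp260 (-0.11) gave 0.0031 in the read model, 0.48 in the log2 ratio and 0.35 when centred. The cause was not tested. Calls were gained at Zfp275 without Control B (limma adjusted p = 0.0225), in the log2 ratio (0.0294) and with exons without spread left out (0.0461), at Zfp106 with a clip at 0.001 (0.0217), in the read model (0.0215), the log2 ratio (0.0234) and without such exons (0.0402), at Zfp512 without them (0.0463) and at Zfp277 (202 nt) when centred (0.0200).

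No paired analysis was possible because the columns of the files carry no replicate numbers that match the labels. Few informative reads limit all values: 39 of 100 Zfp exons could not be tested, and 23 of the 61 tested had under 5 reads of one isoform (37.7%, against 33.6% of all tested exons).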

Other observations

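Among 45 exons of 31 other zinc finger genes, a list of families such as Zbtb, Zkscan, Prdm and Zc3h, 30 were tested and 4 were called (13.3%, against 15% of all tested exons). A 390-nt exon of Wiz, a partner of the G9a histone methyltransferase, rose from a mean Psi of 0.175 ± 0.0495 (SD, n = 2) to 0.713 ± 0.0153 (SD, n = 3; limma adjusted p = 0.00922). A 100-nt exon of Zkscan6 rose from 0.0300 to 0.103 (adjusted p = 0.0162 in limma). A 175-nt exon of Prdm16, a transcriptional regulator of heart and brown fat development, fell from 0.415 ± 0.00707 (SD, n = 2) to 0.15 ± 0.0436 (SD, n = 3; limma adjusted p = 0.0370), and a 230-nt exon of Maz fell from 0.300 to 0.207 (adjusted p = 0.0230 in limma). The median difference in Psi over the 30 exons was -0.00833, beside -0.0117 in Zfp exons and -0.01 in all tested exons.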
